A study of Mus musculus with 15 samples.

Results

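The genes described here are antiviral genes that type I interferon induces. They were chosen by name, with earlier results of these data known. The names sought among the rows of the deposited count table were Irf7, Isg15, Oas2, Oas3, Oasl2, Ifit1, Ifit2, Ifit3, Rsad2 and Mx2. Rows were found for 9 of these 10 genes among 39331 genes in the table, and Mx2 was not analysed here. All 9 passed the filter on low counts, which kept 16437 genes. The tissue was left ventricle of C57BL/6 mice, read as polyadenylated RNA, and every group had experimental myocardial infarction. There were 4 libraries of neonatal hearts given adult T cells (numbered 1, 2, 4, 5) and 4 of neonatal hearts left untreated (numbered 6 to 9). Adult hearts that received adult T cells gave 4 libraries (1 to 4), and adult control hearts gave 3 (5 to 7). The protocol gives 36 h after infarction for neonatal hearts only, so the time for adult hearts is not stated. Age in days, the number and source of the T cells and the sex of the mice are not stated either. Nothing in the labels says whether 1 library is 1 animal, so p-values measure the spread between libraries.

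Type I interferons are cytokines released when a cell senses foreign or misplaced nucleic acid. They bind a receptor made of Ifnar1 and Ifnar2, whose kinases Jak1 and Tyk2 start the signal to the nucleus. There a complex that holds Irf9 binds a DNA element, the interferon-stimulated response element, in front of target genes. Irf7 is a target that in turn drives interferon genes. The other members are effectors, and after infarction macrophages are a known place of their expression.

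Stretches of 5 member promoters are shown because they hold letters of the response element. The RefSeq promoter table on GRCm38.p6 had windows for 8 of the 9 genes. The letters GAAA, any 2 bases and again GAAA were searched on both strands in the 250 bases before each start site. A match was found for 5 of these 8 genes and for 3.46% of all 27025 genes with a window (2.98% of 32851 windows). Each stretch is 160 bases long, ends just before the start site, reads 5′ to 3′ along the gene's strand and has matches in capitals.
Isg15, chr4:156200819-156200978, minus strand: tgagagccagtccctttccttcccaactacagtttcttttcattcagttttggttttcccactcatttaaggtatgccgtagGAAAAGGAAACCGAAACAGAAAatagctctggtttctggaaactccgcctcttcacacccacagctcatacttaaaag
Oas3, chr5:120777660-120777819, minus strand: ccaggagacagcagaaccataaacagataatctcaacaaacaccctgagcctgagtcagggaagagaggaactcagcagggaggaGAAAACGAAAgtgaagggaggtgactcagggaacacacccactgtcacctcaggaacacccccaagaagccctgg
Rsad2, chr12:26456453-26456612, minus strand: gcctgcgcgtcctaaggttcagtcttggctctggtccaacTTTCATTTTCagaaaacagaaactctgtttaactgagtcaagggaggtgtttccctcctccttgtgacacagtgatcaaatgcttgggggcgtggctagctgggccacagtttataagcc
Ifit3, chr19:34583369-34583528, plus strand: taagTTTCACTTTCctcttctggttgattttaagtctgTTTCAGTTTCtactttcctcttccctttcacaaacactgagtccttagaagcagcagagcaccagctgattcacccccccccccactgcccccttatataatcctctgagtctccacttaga
Ifit1, chr19:34640729-34640888, plus strand: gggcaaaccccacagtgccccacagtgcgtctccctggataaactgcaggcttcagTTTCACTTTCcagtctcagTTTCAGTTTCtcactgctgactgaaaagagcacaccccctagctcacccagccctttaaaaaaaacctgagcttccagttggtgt
Isg15 held 3 overlapping matches, the nearest 66 bases before the start. Ifit1 and Ifit3 held 2 matches each with the same letters, the nearest 85 and 122 bases before the start. Single matches lay 75 bases before Oas3 and 120 before Rsad2. No match to these letters lay in the windows of Irf7, Oasl2 and Ifit2. A second motif, TTCNNNGAA, the core of the gamma-activated sequence, matched in 1 of the 8 genes (Ifit2) and in 8.13% of all genes with a window (7.02% of windows). A match is a description of the letters and not a site shown to be bound.

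Levels are in CPM, with library sizes adjusted by the TMM factors of edgeR, and differences are log2 fold changes ± standard error from 1 edgeR quasi-likelihood fit over all 15 libraries. A gene was called at a Benjamini-Hochberg adjusted p below 0.05 over all genes tested. Library totals ran from 21871617 to 34302786 counts, and 3 counts, the floor for a gene at 0, equalled 0.0814 to 0.147 CPM. The 10 cardiomyocyte markers summed to 45780 to 65010 CPM, with none at 0 in any group. The 12 T cell markers summed to 5.80 to 8.09 CPM in neonatal recipients, with 6.35 to 8.39 in untreated neonates, and to 8.49 to 15.5 CPM in adult recipients, with 8.13 to 12.3 in adult controls. Of the 8 tested, 1 was called higher with T cells in adults, Cd4, the co-receptor of helper T cells (1.05 ± 0.31, adjusted p = 0.0443 by edgeR, with 3.53% of all genes called higher), a call lost without adult recipient 4, adult control 5 or adult control 6. Neonatal control 8 stood apart, with the lowest macrophage marker sum of the neonatal libraries. In whole ventricles, more cells of a type and more RNA per cell cannot be told apart.

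Age was the comparison in which these genes differed. The adult time after infarction is not stated, so a difference by age cannot be told apart from one of time after infarction. All 9 had higher mean levels in neonatal than in adult ventricles, with and without T cells. Among controls 4 of 9 were called higher in neonates, Oas2, Oas3, Oasl2 and Irf7, against 15.4% of all genes tested (30.9% in either direction). Among recipients 6 of 9 were called higher, the same 4 with Ifit1 and Isg15, against 26.9% of all genes (50.7% in either direction). None was called lower in neonates in either comparison. The median log2 fold change of the 9 was 1.55 among controls and 1.30 among recipients, beside 0.02 and 0.03 over all genes. DESeq2 called 6 and 8 of the 9.

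**Figure D1:**
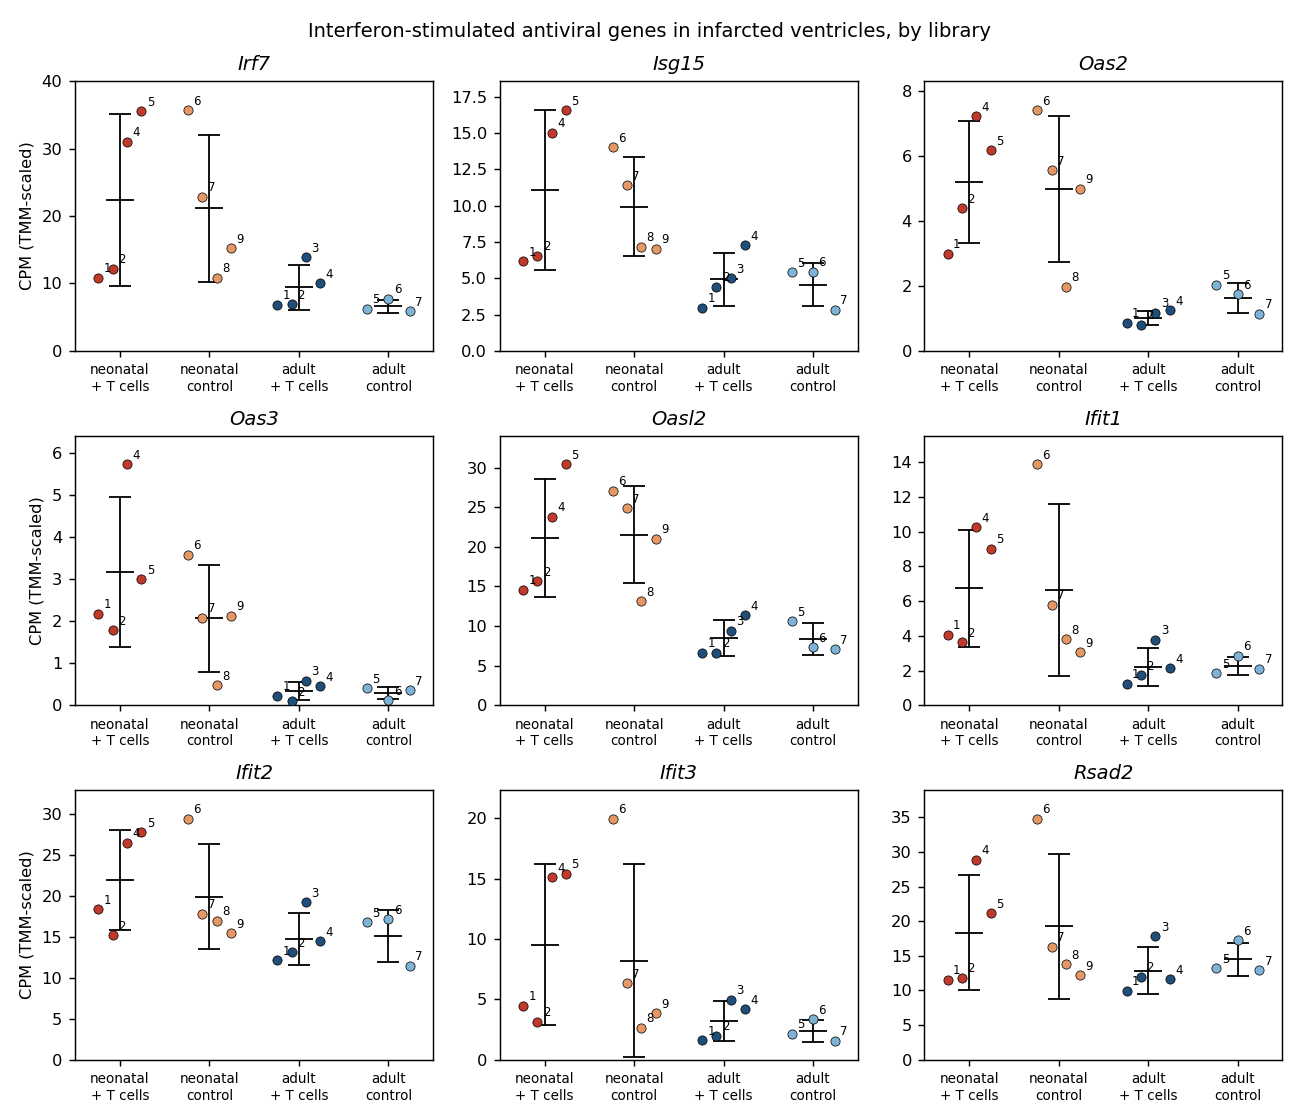
CPM (vertical axes, linear from 0) of each of the 9 genes in 15 libraries, by group, with library numbers beside the points and group mean ± SD as black bars (n = 4, 4, 4 and 3). For Oas3 the neonatal libraries other than control 8 lie between 1.79 and 5.74 CPM and the adult ones between 0.0941 and 0.587, while Rsad2 overlaps between all groups.

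The Oas genes were called higher in neonates in both comparisons. Oas2 and Oas3 make the short 2-5A chains that switch on the nuclease RNase L, and lie beside each other on chromosome 5 (Oas2, gene ID 246728, 120730333 to 120749886; Oas3, gene ID 246727, 120753098 to 120777684). Oas3 measured 2.18, 1.79, 5.74 and 3.0 CPM in neonatal recipients 1, 2, 4 and 5, while untreated neonates 6 to 9 had 3.58, 2.09, 0.478 and 2.14. In adults it measured 0.228, 0.0941, 0.587 and 0.451 CPM in recipients 1 to 4 and 0.400, 0.127 and 0.365 in controls 5 to 7, close to the floor. The neonatal and adult libraries did not overlap within controls or within recipients, although neonatal control 8 came below adult recipient 3. The log2 difference by age was 2.77 ± 0.70 among controls (adjusted p = 0.00836) and 3.18 ± 0.62 among recipients (adjusted p = 0.000595).

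Oas2 measured 2.99, 4.39, 7.21 and 6.17 CPM in neonatal recipients, and untreated neonates had 7.41, 5.56, 1.98 and 4.99, in the same order of libraries. Adult values were 0.870, 0.800, 1.17 and 1.24 CPM in recipients and 2.04, 1.73 and 1.14 in controls. Recipients of the 2 ages did not overlap, whereas neonatal control 8 fell just under adult control 5. The difference by age was 1.60 ± 0.39 among controls (adjusted p = 0.0059) and 2.33 ± 0.38 among recipients (adjusted p = 0.000109). Oasl2, a ubiquitin-like member of the family (gene ID 23962, chromosome 5, 114896926 to 114912245), was more abundant. It measured 14.6, 15.6, 23.8 and 30.4 CPM in neonatal recipients, and untreated neonates had 27.1, 24.9, 13.2 and 21.0. In adults the values were 6.64, 6.64, 9.39 and 11.4 CPM in recipients and 10.6, 7.36 and 7.05 in controls. Every neonatal library lay above every adult one, with differences of 1.36 ± 0.32 and 1.30 ± 0.29 (adjusted p = 0.00643 and 0.00243). Its counts held fractions in 14 of 15 libraries, and the rule behind such fractions is not given. Oas2, Oas3 and Oasl2 were called in both age comparisons under all 22 alternative fits, leave-one-out fits included. Here and for the genes below, the 22 include the fit with the replicate number as a block between the ages. That pairing was not used for the results, as the closing section states.

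Irf7, the interferon regulatory factor that amplifies the response (gene ID 54123, chromosome 7, 141263183 to 141266499), had values of 10.8, 12.2, 31.0 and 35.5 CPM in neonatal recipients. Neonatal controls measured 35.7, 22.8, 10.8 and 15.2 CPM. Adult levels were 6.83, 6.92, 13.9 and 10.03 CPM in recipients and 6.24, 7.74 and 5.88 in controls. Adult recipient 3 reached above neonatal recipients 1 and 2, and among controls the ages did not overlap. The difference by age was 1.68 ± 0.53 among controls (adjusted p = 0.0322) and 1.24 ± 0.47 among recipients (adjusted p = 0.0453). The call among controls was lost without the filter on low counts, without neonatal control 6 or 7 and without any 1 of the adult controls, and the one among recipients was kept in 9 of 22 alternative fits.

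Isg15, a ubiquitin-like protein attached to other proteins in this response (gene ID 100038882, chromosome 4, 156199424 to 156200818), measured 6.16, 6.55, 15.01 and 16.6 CPM in neonatal recipients. It measured 14.04, 11.4, 7.18 and 7.04 CPM in neonatal controls. The adult libraries held 2.96, 4.42, 4.99 and 7.29 CPM in recipients and 5.40, 5.45 and 2.84 in controls. Controls of the 2 ages did not overlap, yet the difference of 1.12 ± 0.44 was not called (adjusted p = 0.0692). Among recipients the difference was 1.15 ± 0.40 (adjusted p = 0.0285), although adult recipient 4 lay above neonatal recipients 1 and 2, and this call was kept in 15 of 22 alternative fits.

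The Ifit genes, whose proteins bind foreign RNA ends and hold back translation, form a cluster on chromosome 19. Ifit1 (gene ID 15957, 34640889 to 34650009) measured 4.05, 3.62, 10.2 and 9.01 CPM in neonatal recipients, and untreated neonates had 13.9, 5.80, 3.81 and 3.05. In adults it stood at 1.25, 1.72, 3.79 and 2.12 CPM in recipients and 1.86, 2.85 and 2.11 in controls. Neonatal control 6 was far above the other neonatal controls, and the control groups still did not overlap. The difference by age was 1.55 ± 0.58 among controls (adjusted p = 0.0617) and 1.59 ± 0.54 among recipients (adjusted p = 0.0249), where the call was kept in 16 of 22 alternative fits.

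Ifit3 (gene ID 15959, 34583119 to 34588982) spread the most between neonatal libraries other than Oas3, by 7.55-fold from lowest to highest. It measured 4.47, 3.15, 15.1 and 15.4 CPM in neonatal recipients, and untreated neonates had 19.9, 6.36, 2.64 and 3.84. Adult values were 1.64, 2.0, 4.96 and 4.19 CPM in recipients and 2.16, 3.34 and 1.58 in controls. The ages overlapped in both comparisons, and neither difference was called (1.79 ± 0.83, adjusted p = 0.126, and 1.55 ± 0.74, adjusted p = 0.100). Reads of Ifit3 can be shared with its near copy Ifit3b, and its counts held fractions in 8 of 15 libraries, as those of Ifit1 did in 12.

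Ifit2 and Rsad2 differed least by age. Ifit2 (gene ID 15958, 34550550 to 34576534) measured 18.4, 15.2, 26.4 and 27.7 CPM in neonatal recipients, 29.4, 17.8, 17.0 and 15.4 in untreated neonates, 12.1, 13.1, 19.2 and 14.4 in adult recipients and 16.8, 17.1 and 11.5 in adult controls. Rsad2 encodes viperin, a radical SAM enzyme that makes a chain-ending nucleotide against viral polymerases (gene ID 58185, chromosome 12, 26442743 to 26456452). It measured 11.6, 11.9, 28.9 and 21.1 CPM in neonatal recipients, 34.8, 16.3, 13.8 and 12.2 in untreated neonates, 9.98, 12.0, 17.8 and 11.6 in adult recipients and 13.2, 17.2 and 12.9 in adult controls. For both genes the ages overlapped. The differences among controls were 0.39 ± 0.27 and 0.41 ± 0.41 (adjusted p = 0.287 and 0.487), and those among recipients 0.57 ± 0.25 and 0.51 ± 0.38 (adjusted p = 0.0695 and 0.298).

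Counting libraries, controls of the 2 ages did not overlap for 5 of 9 genes higher in neonates (16.9% of all genes tested, with 17.7% lower), and recipients for 3 of 9 (23.8%). The number called among controls was 3 to 5 when any 1 library was left out. Among recipients it was 3 without neonatal recipient 4 or 5 or adult recipient 1 or 2, 4 without adult recipient 4, and up to 8 without neonatal control 6. Without neonatal control 6 the median difference among controls was 0.91 instead of 1.55.

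**Figure D2:**
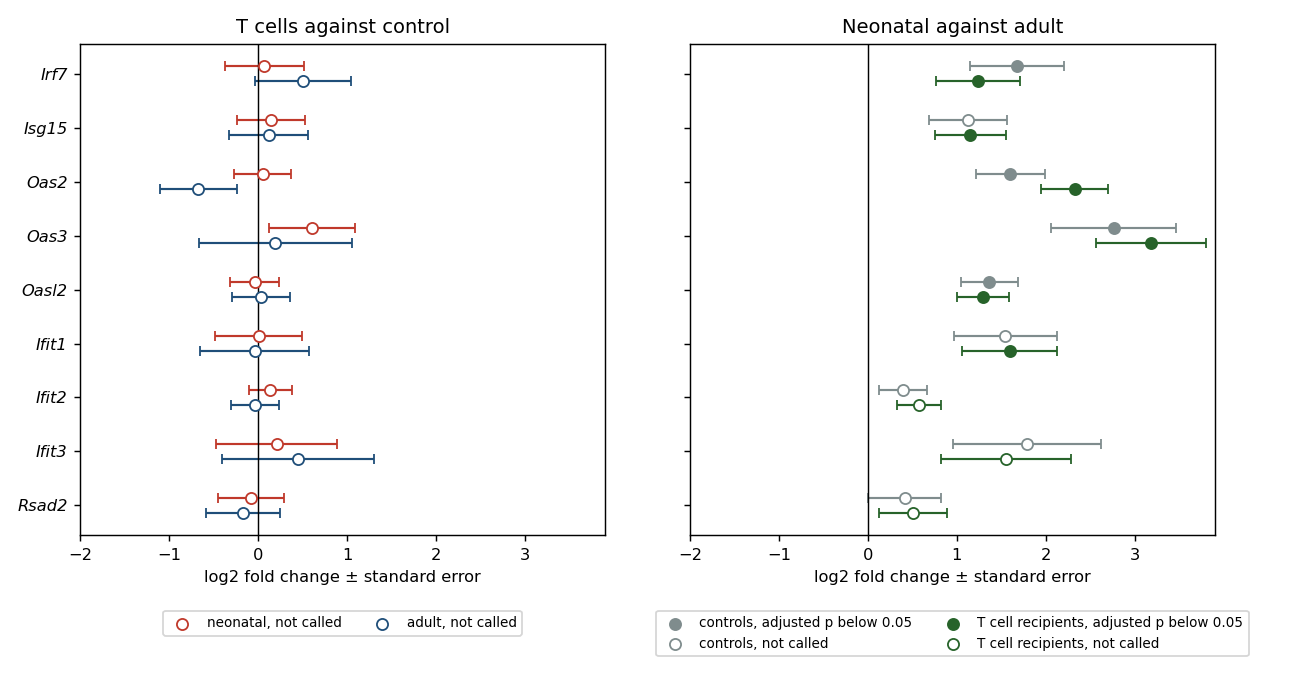
Log2 fold change ± standard error (horizontal axes) of the 9 genes, for T cells against control on the left and neonatal against adult on the right; filled points are called at an adjusted p below 0.05. No point on the left is filled, and on the right all points lie above 0, from 0.39 for Ifit2 in controls to 3.18 for Oas3 in recipients.

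Compared per kilobase of the longest annotated transcript (GENCODE M21), Isg15 was the most abundant member in all 4 groups, at 13.1 ± 4.52 CPM per kilobase in neonatal controls and 6.03 ± 1.97 in adult controls (SD). The lowest level was that of Oas3, at 0.439 ± 0.269 and 0.0630 ± 0.0315 CPM per kilobase. Oasl2 and Irf7 followed Isg15 in neonatal controls, at 6.89 ± 1.959 and 6.53 ± 3.37, within each other's spread. The longest Irf7 transcript has 3240 bases, close to the whole span of the gene, so the rank of Irf7 depends on the transcript chosen. In adult controls Ifit2 and Rsad2 came after Isg15, at 3.96 ± 0.827 and 3.46 ± 0.575 CPM per kilobase.

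T cells did not separate the groups for these genes. The question was whether adult T cells altered interferon-stimulated transcripts in infarcted ventricles of either age. In neonates 0 of 9 were called (0% of all genes tested), in adults 0 of 9 (8.55% of all genes, 5.03% lower), and for the difference of both effects 0 of 9 (0%). At an unadjusted p below 0.05 the counts were also 0 of 9 in each, and DESeq2 called 0 of 9 in each. Recipients and controls overlapped for all 9 in neonates (0.633% of all genes lay apart and higher, 0.724% lower) and for all 9 in adults (13.1% and 12%). The median log2 fold change of the 9 with T cells was 0.07 in neonates, where 7 were positive, and 0.03 in adults, where 5 were positive. The median standard error over the 9 was 0.38 in neonates and 0.45 in adults, beside 0.11 and 0.12 over all genes.

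For single genes in neonates, mean levels in recipients and controls lay within each other's SD. Irf7 measured 22.4 ± 12.7 and 21.1 ± 10.9 CPM (mean ± SD, n = 4 and 4), and Isg15 11.1 ± 5.50 and 9.92 ± 3.42. Oasl2 stood at 21.1 ± 7.45 and 21.5 ± 6.12 CPM, Rsad2 at 18.4 ± 8.29 and 19.3 ± 10.5, and Ifit1 at 6.73 ± 3.39 and 6.64 ± 4.97. The largest difference was that of Oas3, with 3.18 ± 1.78 and 2.07 ± 1.27 CPM, a log2 fold change of 0.61 ± 0.49. Which control was left out set the sign of the median, at -0.16 without neonatal control 8 and 0.38 without neonatal control 6. In adults the median was -0.155 without recipient 3, 0.246 without control 5 and -0.0183 with only the adult groups in the fit.

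In adults Oas2 had the lowest log2 fold change of the 9 with T cells, with 1.02 ± 0.22 CPM in 4 recipients against 1.64 ± 0.46 for 3 controls, at -0.67 ± 0.43 (adjusted p = 0.339). Irf7 had the highest log2 fold change, with 9.41 ± 3.33 and 6.62 ± 0.985 CPM, at 0.51 ± 0.54 (adjusted p = 0.593). Isg15 measured 4.91 ± 1.80 and 4.56 ± 1.49 CPM, and Ifit2 14.7 ± 3.14 and 15.1 ± 3.16. The adult groups overlapped for all 9 genes. For the difference between the T cell effects of both ages, which is also the difference between the age effects of recipients and controls, the smallest adjusted p among the 9 was 0.542, for Oas2 at 0.72 ± 0.54.

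Within groups the 9 genes went up and down together from library to library. In neonatal recipients 4 and 5 all 9 lay above their group mean, by 0.65 and 0.54 on average on the log2 scale, and in recipients 1 and 2 all 9 lay below it, by -0.58 and -0.61. Neonatal control 6 had all 9 above the mean of its group (0.92), and control 8 had all 9 below (-0.78). Adult recipient 3 had all 9 above (0.52), and adult recipients 1 and 2 had all 9 below (-0.43 and -0.38). Adult controls kept closer together, between -0.24 and 0.13.

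**Figure D3:**
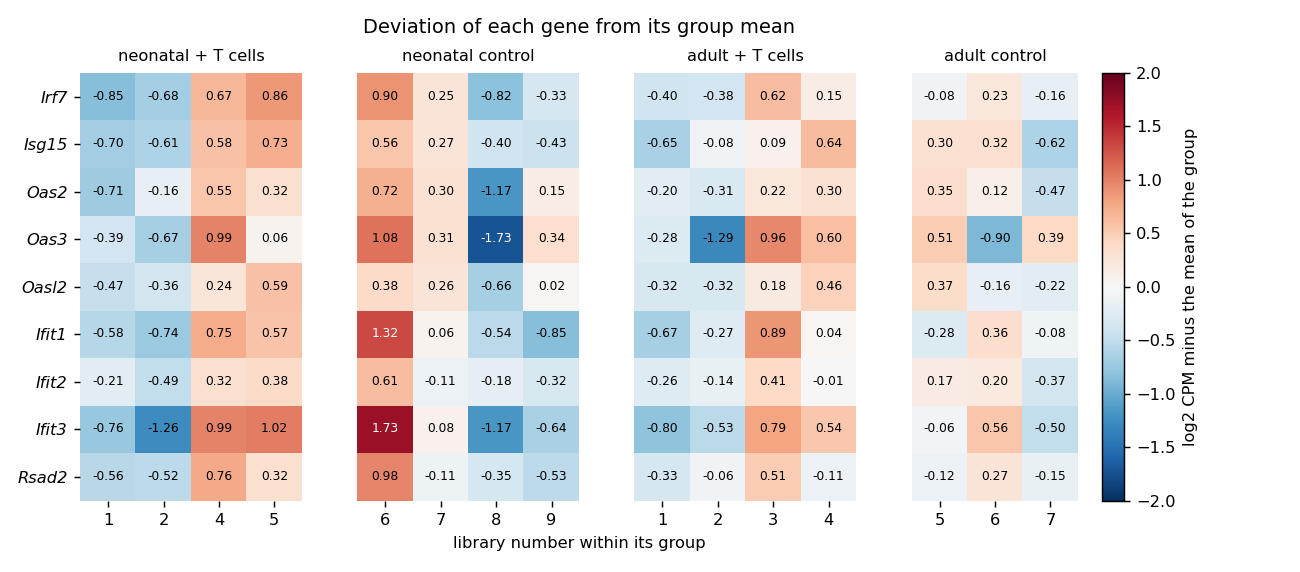
Log2 CPM of each gene minus the mean of its group (colour and printed value), with genes in rows and libraries in columns, split by group. Columns tend to have 1 colour from top to bottom, as in neonatal recipients 4 and 5 (all above 0) and neonatal control 8 (all below 0).

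As a description, the Pearson correlation of these deviations over 15 libraries was positive for all 36 pairs of genes, with a median of 0.804. It was lowest for Oas3 and Isg15 (0.464) and highest for Ifit1 and Rsad2 (0.968). Within the 8 neonatal libraries the median was 0.889, and within the 7 adult ones 0.668. Each pair shares its libraries, depth and tissue makeup. The spread among neonatal recipients went with depth, with 31897034 and 30756081 counts in recipients 1 and 2 and 21871617 and 22178369 in recipients 4 and 5. Neonatal controls and adult recipients did not keep this order. Controls 6 to 9 held 26679993, 34302786, 30716859 and 24395718 counts, with average deviations of 0.92, 0.147, -0.779 and -0.287. Adult recipients 1 to 4 held 23097615, 24020451, 22448517 and 27775438 counts, with average deviations of -0.433, -0.375, 0.518 and 0.291. The sum over 23 genes tied to interferon gamma split the neonatal recipients as well. It was 360.7 and 381.2 CPM in recipients 1 and 2 and 558.5 and 459.9 in recipients 4 and 5. That sum was 425.4, 374.0, 392.8 and 369.6 CPM in neonatal controls 6 to 9, and 432.0, 446.3, 510.6 and 391.9 in adult recipients 1 to 4. The parts of depth and of interferon gamma in the spread were not tested.

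Macrophage markers also differed by age. The 10 markers, among them Csf1r, Adgre1 and Cd68, summed to 682 to 1023 CPM in neonatal recipients, 256 to 812 in neonatal controls, 209 to 286 in adult recipients and 220 to 291 in adult controls, with none at 0 in any group. Of the 10, 7 were called higher in neonates among controls (15.4% of all genes) and 10 among recipients (26.9%). Per 100 CPM of these markers, the 9 antiviral genes summed to 18.97 to 27.6 CPM in neonatal controls and 15.6 to 28.4 in adult controls. Unlike the ratio to monocyte markers given below, that ratio overlapped between the control groups of the 2 ages. In neonatal recipients 1 and 2 the ratio to macrophage markers was 7.35 and 10.9, and in recipients 4 and 5 23.65 and 20.2, while adult recipients spanned 15.9 to 26.5. Recipient 1 had the highest macrophage sum of all libraries, 1023 CPM, and an antiviral sum of 75.2 CPM, against 163 and 165 CPM in recipients 4 and 5. The part of macrophages in the age difference was not tested.

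**Figure D4:**
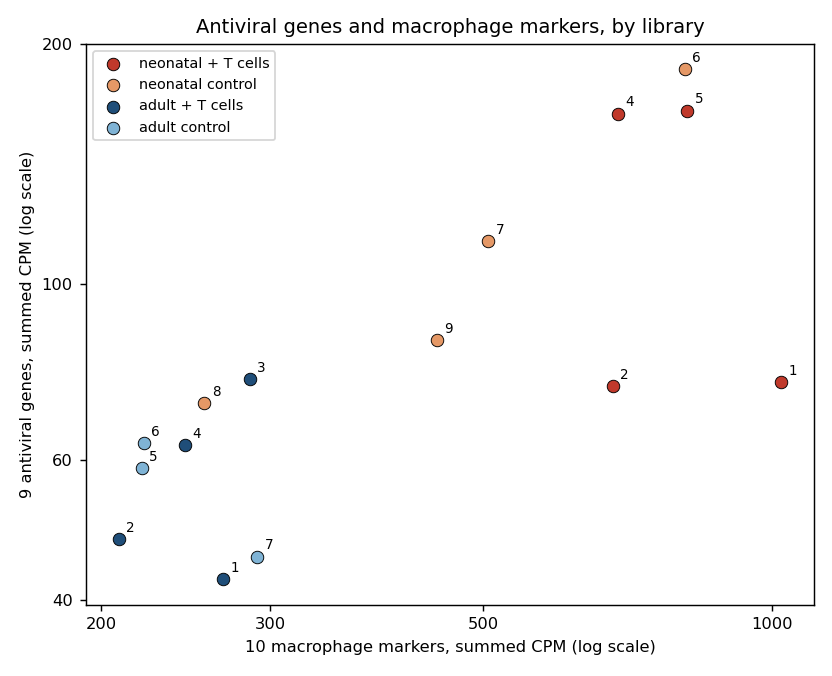
Summed CPM of the 9 antiviral genes (vertical, log scale) against summed CPM of 10 macrophage markers (horizontal, log scale), 1 point per library with its number, coloured by group. The neonatal controls span 256 to 812 CPM of markers and 70.8 to 186 CPM of antiviral genes. Neonatal recipients 1 and 2, at 1023 and 682 CPM of markers, lie below recipients 4 and 5, at 691 and 816.

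Other leukocytes gave smaller sums. The 8 monocyte markers summed to 60.3 to 86.1 CPM in neonatal recipients, 21.2 to 73.2 in neonatal controls, 24.5 to 40.6 in adult recipients and 27.2 to 38.7 in adult controls. By age among controls, 6 of the 8 had a positive log2 fold change and 2 a negative one. Of these 1 was called higher and 1 lower (15.4% and 15.6% of all genes). Ly6c2 measured 4.755 ± 0.690 CPM in neonatal and 10.45 ± 1.75 in adult controls, and F13a1 19.2 ± 8.23 and 11.1 ± 2.81. The 10 neutrophil markers gave 35.4 to 62.0, 25.6 to 67.3, 12.8 to 26.2 and 17.6 to 36.2 CPM in the same order. Plasmacytoid dendritic cells are known as strong makers of type I interferon, and their 6 markers summed to at most 2.09 CPM in any library. The parts of these cells in the age difference were not tested.

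Interferon transcripts themselves were at or near 0. Of 21 interferon genes 16 had no count in any of the 15 libraries, and none passed the filter. Ifnb1, the interferon beta gene, had 2 counts in neonatal recipient 4, 1 in recipient 1, 1 in neonatal control 6 and 0 elsewhere. Over all type I genes other than Ifnz the 15 libraries held 6 counts. Ifnz held 16.85 counts in total, was above 0 in 13 libraries and was highest in neonatal control 6, at 4.39. Ifng, the interferon gamma gene, had 15 counts in neonatal recipient 4, 7 in recipient 5, 1 in recipient 2 and 0 in recipient 1. Elsewhere it had 3 counts in adult recipient 2 and 1 in neonatal control 7, and 0 in neonatal control 6, which had the highest antiviral sum. The part of these interferon genes in the antiviral levels was not tested.

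Among genes of the receptor and its transducers, differences by age were small. Of 7 genes, 1 was called higher in neonates among controls and 4 among recipients, none lower, with medians of 0.18 and 0.26. Over all genes 15.4% were called higher and 15.6% lower among controls, and 26.9% and 23.8% among recipients, so the count among controls was near the share of all genes. Irf9, the DNA-binding part of the complex, measured 27.5 ± 2.09 CPM in neonatal controls and 20.7 ± 1.53 in adult controls (0.41 ± 0.12, adjusted p = 0.0130). Among recipients those called included Jak1 (0.26 ± 0.07), Ifnar1 (0.17 ± 0.06) and Irf9 (0.30 ± 0.11). Without adult control 5 the count among controls was 0, and without adult recipient 1 that among recipients was 1.

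Of 15 sensors of nucleic acid and their adaptors, 8 were called higher in neonates and 1 lower among controls (15.4% and 15.6% of all genes), and 11 higher and 1 lower among recipients (26.9% and 23.8%), with medians of 0.59 and 0.65. Tlr7, an endosomal receptor for single-stranded RNA, measured 6.84 ± 3.52 CPM in neonatal controls and 1.65 ± 0.16 in adult controls (2.04 ± 0.40, adjusted p = 0.00156). Dhx58 and Ddx58, helicases of the RIG-I family, differed by 1.78 ± 0.44 and 0.51 ± 0.14 among controls. The gene lower in neonates was Mavs, the mitochondrial adaptor below those helicases, at 43.0 ± 0.957 and 56.2 ± 2.74 CPM (-0.39 ± 0.08, adjusted p = 0.00114). Tlr7 and Tlr8 are also expressed by macrophages, whose markers were higher in neonates too, and the part of macrophages in these differences was not tested. Leaving out adult control 6 reduced the number higher among controls to 3.

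Among 14 regulatory factors and kinases, 1 was called higher and 1 lower in neonatal controls, and 9 higher and 1 lower in neonatal recipients. Over all genes the shares were 15.4% and 15.6% among controls and 26.9% and 23.8% among recipients, so the counts among controls were no higher than those of all genes. The number higher was 3 among controls without neonatal control 8 and 6 among recipients without neonatal recipient 1. Irf5, a factor of myeloid cells, measured 11.5 ± 5.25 CPM in neonatal controls and 4.38 ± 0.506 in adult controls (1.39 ± 0.31). Tbk1, the kinase that activates Irf3 and Irf7, stood at 28.6 ± 1.04 CPM in neonatal recipients and 20.1 ± 0.855 in adult recipients (0.51 ± 0.08, adjusted p = 2.37e-05). Tbk1 was also 1 of 3 genes of this list called lower with T cells in adults, as were 5.03% of all genes (-0.30 ± 0.08, adjusted p = 0.0337), with Irak1 and Traf6. No gene of the whole series was called in that comparison without adult recipient 4, adult control 5 or adult control 6, or with the trend with transcript length removed.

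The other interferon-stimulated antiviral genes give the setting for the 9 members. Of 70 tested, 27 were called higher and 5 lower in neonatal than adult controls (15.4% and 15.6% of all genes), and 35 higher and 4 lower among recipients (26.9% and 23.8%). The median log2 fold changes were 0.31 and 0.42. Eif2ak2, the kinase PKR that stops translation on double-stranded RNA, measured 50.3 ± 3.53 CPM in neonatal controls and 33.8 ± 1.61 in adult controls (0.57 ± 0.08, adjusted p = 5.72e-05). Slfn9, of the Schlafen family, differed by 0.58 ± 0.10 among controls and 0.99 ± 0.09 among recipients. Ifi207, of the DNA-binding p200 family, differed by 2.62 ± 0.41 and 3.14 ± 0.38. Not all members of the list went this way. Tnfsf10, the death ligand TRAIL, measured 6.24 ± 0.665 CPM in neonatal controls and 16.7 ± 3.60 in adult controls (-1.42 ± 0.17, adjusted p = 1.23e-05), and Ly6e, a surface protein that limits coronavirus entry, fell by 0.96 ± 0.11 from adult to neonatal recipients. Without adult control 5 the number higher among controls was 17.

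With T cells this list had 2 calls of 70 in adults, Slfn9 lower (-0.49 ± 0.10, adjusted p = 0.0180) and Ifitm2 higher (0.33 ± 0.09, adjusted p = 0.0390), beside 8.55% of all genes, and 0 of 70 in neonates, beside 0%. Brakes on the pathway showed 1 higher and 2 lower of 14 among controls by age, and 6 higher and 1 lower among recipients. Over all genes 15.4% were higher and 15.6% lower among controls, so the brakes were near or below these shares, and 26.9% and 23.8% among recipients. Without adult control 5 none of the 14 was called among controls. Ptpn6, the phosphatase SHP-1 of blood cells, was higher in both (0.85 ± 0.30 and 1.59 ± 0.28). Of 22 genes tied to interferon gamma, 2 were called higher and 2 lower in neonatal controls, and 5 higher and 2 lower in neonatal recipients, below the same shares of all genes. The number higher was 0 among controls without adult control 5 and 2 among recipients without adult recipient 1. Nos2, the inducible nitric oxide synthase, measured 7.75 ± 1.54 CPM in neonatal controls and 18.5 ± 2.0 in adult controls (-1.26 ± 0.17, adjusted p = 3.18e-05), and Ifngr2, a chain of the interferon gamma receptor, 168 ± 14.02 and 246 ± 15.4 CPM.

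The 8 genes whose deviations from the group means were most like the average of the 9 members over 15 libraries included Phf11b (Pearson r = 0.938), Tap1 (0.935), Ifit3b (0.929), Psmb8 (0.923), Parp12 (0.920), Oasl1 (0.920) and Oas1g (0.912). They were selected for this correlation among 14033 genes with a mean of at least 1 CPM, for which the median r was 0.023 and the range from the 5th to the 95th percentile -0.496 to 0.570. Of the 8, 7 stand in the pathway lists, and Psmb8 encodes a subunit of the immunoproteasome. Ifit3b can share reads with the member Ifit3, and the part of shared reads in its r was not tested. Without the 2 libraries farthest from 0, neonatal controls 6 and 8, r was 0.878 to 0.947. Tap1, the peptide transporter of antigen presentation, measured 17.5 ± 7.91, 12.4 ± 3.22, 13.9 ± 4.18 and 10.7 ± 0.407 CPM in neonatal recipients, untreated neonates, adult recipients and adult controls.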

How the data were processed

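Per the submitters' processing notes, the authors used bcl2fastq 2.20.0.422, cutadapt 2.5, STAR 2.7.2b, featureCounts 1.6.4 and DESeq2 1.24.0 with GRCm38.p6. The authors deposited 1 table of raw expected counts per gene, in which 61.1% of non-zero values were whole. The strand setting and the rule for fractions are not given in the sources used here.

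Counts were rounded, filtered with filterByExpr (minimum count 10, total 15), normalised with TMM factors and fitted in edgeR 4.0.16 (R 4.3.3) by robust quasi-likelihood, with 1 coefficient per group and no covariate. Benjamini-Hochberg adjustment of the two-sided p-values covered 16437 genes. Standard errors were derived from the F statistic. For deviations within groups, log2 CPM were taken with a prior count of 1. The floor of 3 counts covers counting error only. DESeq2 1.42.0 and other alternatives are in the closing section. Counts were also simulated for 16437 genes. Of the genes given a 2-fold change, 86% were recovered for T cells in neonates and 84% in adults. The shares were 82% for age among controls and 80% among recipients. These rates need not hold for the members, whose median standard error for T cells was 0.378 in neonates and 0.447 in adults. Over all genes the median was 0.114 and 0.125. Recovery at the members' spread was not tested.

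The members and lists were chosen with earlier results of these data known. Named genes are all members, per list and comparison up to 4 called genes by smallest p (or, with none called, the 2 of highest mean CPM), and the 8 genes most alike. Not all are printed, and 1 gene of the pathway lists is not reported here.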

Additional observations from a re-analysis of the deposited data

Results flagged for a closer look

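In 27 sets of 4 libraries (9 genes in 3 groups), 1 library stood apart from the other libraries of its group by Dixon's test. Ifit2 measured 29.4 CPM in neonatal control 6 and 15.4 to 17.8 CPM in the other neonatal controls. Chance flags about 1 in 20 such sets. Neonatal control 6 was also the highest of the neonatal controls for each of the other 8 genes.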

How the results depend on the processing

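Across size factors by median ratio, no filter, DESeq2, rounding down, only the groups compared, removal of the transcript length trend and leaving out each library, the number of members called with T cells was 0 in neonates and in adults, and 0 for the difference between them. By age, 4 members were called among controls, and 3 to 5 with 1 library left out. Among recipients 6 were called, 3 to 8 with 1 library left out and 3 without the filter. The cause was not tested. Over all genes, 1406 were called with T cells in adults, 2324 by DESeq2, 0 with the length trend removed and 0 to 1811 with 1 library left out. In neonates 0 were called, and 0 to 9 with 1 library left out. For the difference 0 were called, and 174 by DESeq2. By age over all genes, 3588 to 5523 were called among controls and 7429 to 8499 among recipients with 1 library left out. With the replicate number as a block between the ages, 8 members were called among controls and 8 among recipients. The numbers name different mice, and the deviations of same-numbered libraries correlated at -0.0709 to 0.31, so the pairing was not used. The leave-one-out counts for pathway lists were added after seeing the data. Depth limits Oas3 in adults, where 2 to 12 counts were read.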
